A study of Homo sapiens with 3 samples.

Results

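The genes described here encode the machinery that copies DNA at the replication fork, from the helicase that opens the duplex to the fork protection proteins TIMELESS, TIPIN, CLSPN and WDHD1. They were 48 of the 20098 protein-coding genes of the GENCODE annotation on the autosomes and chromosome X, grouped by what their products do. BMAL1 and MAX were each immunoprecipitated from cross-linked chromatin of untreated MDA-MB-231 cells, an established human triple-negative breast cancer line, with 1 library per antibody and 1 input library that served both. The study asked where these 2 transcription factors bind the genome and whether they share sites at clock genes. The MAX list held 13650 peaks from 11545865 tags, the BMAL1 list 756 peaks from 13866783 tags, and the input 29308882 tags. There were no replicate libraries, so no test over samples was possible, and the values below are counts and levels within each library. A gene was counted as occupied where the summit of a listed peak lay within 1 kb of any of its annotated transcription start sites (TSSs). A gene without a listed peak is one where none passed the peak caller's cutoff at this depth, which does not show that the factor was absent.

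Replication begins with licensing, when the origin recognition complex (ORC) together with CDC6 and CDT1 loads the MCM helicase onto DNA, a step that geminin (GMNN) restrains. CDC45 and the GINS complex then turn the loaded helicase on, polymerase alpha with its primase starts each strand, and polymerases delta and epsilon extend them on the PCNA clamp. TIMELESS and TIPIN travel with the fork, coordinate helicase and polymerase and, with claspin (CLSPN), pass on checkpoint signals. TIMELESS is also named for a fly clock gene. MAX is the partner through which MYC, MNT and the MXD proteins bind the E-box CACGTG, and BMAL1 with CLOCK binds the same word at clock genes. Many replication genes are textbook targets of E2F factors, which bind words such as TTTCCCGC and TTTGGCGC.

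MAX was found at the promoters of most replication genes, and BMAL1 at about the share of all genes. A MAX summit lay within 1 kb of a TSS in 39 of the 48 genes (81.2%), whereas 36.4% of all protein-coding genes had one (7310 of 20098). A BMAL1 summit was listed for POLD1 alone, that is 1 of 48 (2.08%), against 1.85% of all protein-coding genes (372 of 20098). The licensing, polymerase and fork protection genes together had a MAX peak in 24 of 29 (82.8%), and the remaining replication genes in 15 of 19 (78.9%). By role, the count was 12 of 15 for licensing, 8 of 10 for the polymerases and 4 of 4 for fork protection.

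**Figure D1:**
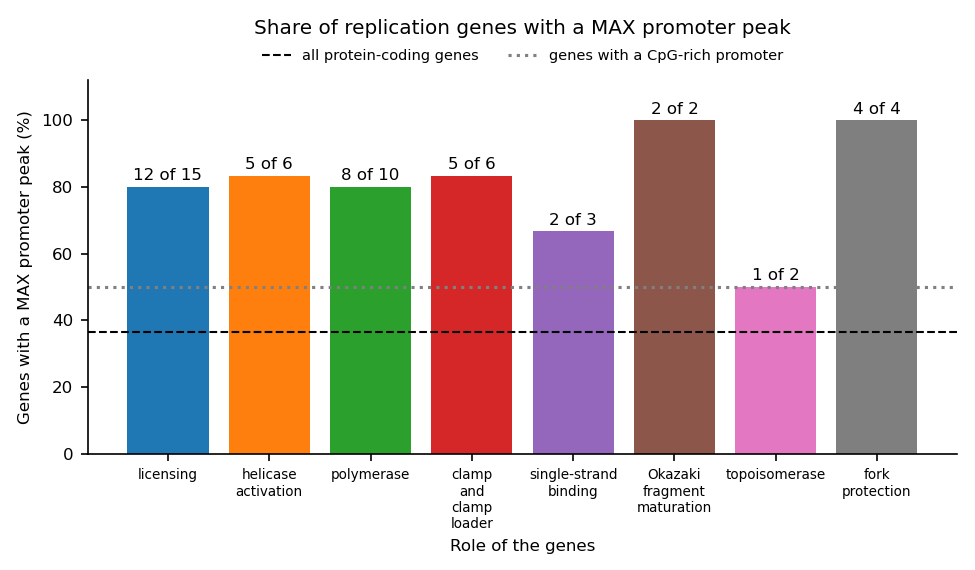
Bars give the percent of genes with a MAX peak summit within 1 kb of a TSS for each role, with the count above each bar, and the lines mark all protein-coding genes (36.4%, dashed) and those with a CpG-rich promoter (49.9%, dotted). The licensing, helicase activation, polymerase, clamp and fork protection bars stand at 80% or more, and the topoisomerase bar, 1 of 2 genes, is at the dotted line.

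Replication genes differ from the average gene in the kind of promoter they have. Of the 48 genes, 46 (95.8%) had a CpG-rich promoter, defined as a GC content of at least 50% and an observed-to-expected CpG ratio of at least 0.6 in the 500 bp on each side of the canonical TSS, against 64.5% of all genes. Among genes with such promoters, MAX was listed at 49.9% of all and at 37 of the 46 replication genes (80.4%), and BMAL1 at 2.53% of all. RPA3 and PRIM2 were the 2 genes outside this class. The class describes the canonical TSS, and the MAX summit of RPA3 lay 78044 bp from it, at another RPA3 TSS. In 13 replication genes (27.1%) another gene's canonical TSS on the opposite strand lay within 1 kb, against 9.97% of all genes. MAX was listed at 28 of the 35 others (80%, against 32.9% of all genes without such a neighbour). It was listed at 11 of these 13, a count that has no all-gene share beside it here and is not read as an excess. The split used canonical TSSs only, and among the 35 the peaks of PRIM1 and POLD3 lay nearer to a TSS of another gene. The MCM2 summit was 162 bp from a TSS of TPRA1, and the RPA3 summit 148 bp from one of UMAD1. The part of neighbouring genes in the count was not tested. The replication genes also had more annotated TSSs, with a median of 7 against 5, and each further TSS adds a place where a peak can be counted. With 1 canonical TSS per gene, 37 of the 48 (77.1%) remained against 32% of all genes.

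TIMELESS carried 1 MAX peak and no BMAL1 peak at its promoter. The MAX peak lay at chr12:56842996-56843428 (hg19), and its summit was 69 bp upstream of the start site. It rested on a pileup of 21 fragments at the summit, with a 95% Poisson interval of 13.0 to 32.1 that covers counting error only. The fold enrichment, which divides this pileup by a local background taken from the input, was 6.66 (4.1 to 10.2), with a -log10 p of 11.39. By fold enrichment TIMELESS ranked 36 of the 39 replication genes with a MAX peak, and the peak stood above only 11.4% of the MAX list. By pileup it ranked 17 of 39. The local background at TIMELESS was 3.15 fragments, against a median of 1.77 over the 39 genes. The nearest BMAL1 peak was 292812 bp from a TIMELESS TSS.

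The other fork protection genes each had a MAX summit within 100 bp of a TSS. TIPIN, the partner of TIMELESS, had its stronger peak at chr15:66648696-66649269 with the summit 32 bp inside the gene, a pileup of 18 (10.7 to 28.4), a fold enrichment of 14.03 (8.3 to 22.2) and a -log10 p of 15.56. A second and weaker TIPIN peak (chr15:66678832-66679260, fold enrichment 6.60, pileup 13, -log10 p 7.61) lay at an upstream TSS, 195 bp from the TSS of MAP2K1. CLSPN, the claspin that links the fork to checkpoint kinases, had a peak at chr1:36235477-36235809 with the summit 61 bp upstream, a pileup of 16 (9.1 to 26.0), a fold enrichment of 12.47 (7.1 to 20.3) and a -log10 p of 13.24. WDHD1, which tethers polymerase alpha to the helicase, had a peak at chr14:55493594-55494257 with the summit 52 bp upstream, a pileup of 32 (21.9 to 45.2), a fold enrichment of 12.89 (8.8 to 18.2) and a -log10 p of 24.96. The WDHD1 promoter is shared with SOCS4, whose canonical TSS is 137 bp away. By fold enrichment TIMELESS was the lowest of the 4, but its interval overlapped those of the other 3, and its pileup was above those of TIPIN and CLSPN. The nearest BMAL1 peaks were 1843335 bp from TIPIN, 616891 bp from CLSPN and 80855 bp from WDHD1.

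The TIMELESS summit window, the 200 bp centred on the strongest MAX summit, held a CACGTG, and those of TIPIN, CLSPN and WDHD1 did not. The rest of each peak was not searched in full. In these windows, CACGTG was found in 8 of the 39 replication genes (20.5%), FEN1, GMNN, MCM2, ORC4, POLD2, RFC4, TIMELESS and TOP1, against 20.9% of all genes with a MAX promoter peak (1530 of 7310). The share was close to the background. These 8 E-boxes are printed with 12 bases on each side, on the plus strand of hg19 and with the word in capitals, because they are the MAX target word in the summit windows of replication genes.
TIMELESS, chr12:56843218-56843247: gccgggctggtcCACGTGactccgagcgaa
MCM2, chr3:127317231-127317260: gctttggtgggtCACGTGaaccacttttcg
ORC4, chr2:148778351-148778380: ctcccgcccaaaCACGTGacctcctttcgt
GMNN, chr6:24775163-24775192: gcgtcagttggtCACGTGgttgttcggagc
POLD2, chr7:44162843-44162872: acaggctccgcaCACGTGtctaacgagtga
RFC4, chr3:186524736-186524765: ccctcttgaggaCACGTGgcttttacttct
FEN1, chr11:61560341-61560370: tggcgagcaggtCACGTGacgggagcgcgg
TOP1, chr20:39657131-39657160: ttaaaggcccacCACGTGgctgcgcggcca
The centre of the E-box was 46 bp from the summit at TIMELESS, 26 bp at MCM2, 8 bp at FEN1 and 10 bp at TOP1, and the farthest was RFC4 at 96 bp.

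The replication genes with a CACGTG in the summit window did not have the stronger MAX peaks. The median fold enrichment was 9.86 in the 8 genes with the word there and 12.5 in the 31 without it. Over all genes it was 13.4 with the word and 10.2 without. The 31 included MCM7 (27.28) and POLD1 (19.67), whose MAX peaks held a CACGTG outside the summit window. These medians therefore describe the summit window and not the whole peak. The 8 included both the highest value, TOP1, and the lowest, RFC4. The related word CACGCG lay in the summit window of 10 replication genes (25.6%, against 19.7% of all), and CACGTT in 2, GINS1 and POLD2 (5.13%, against 6.42%). None of the 3 words was present in 23 of the 39 windows (59%), against 58.5% of all, so most MAX summits at replication genes lay away from these words, as they did at other genes.

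E2F-type words were found at a share well above the background, where the share of E-boxes was close to it. TTTCCCGC, TTTGGCGC or TTTCGCGC, searched on both strands, was present within the summit window in 12 of the 39 genes (30.8%), against 3.68% of all genes with a MAX promoter peak (269 of 7310). The 12 were MCM2, MCM3, MCM5, MCM6, ORC3, POLA1, POLE2, PCNA, RFC3, LIG1, TIPIN and CLSPN. For the MCM genes, the clamp and its loader and the fork protection genes, a site is printed with 11 bases on each side and the word in capitals, on the strand that reads it, because these words differed most from the background share.
MCM2, chr3:127317245-127317274, plus strand: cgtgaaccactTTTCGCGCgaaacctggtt
MCM3, chr6:52149526-52149555, minus strand: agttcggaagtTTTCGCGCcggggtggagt
MCM5, chr22:35795923-35795952, plus strand: ccagccagaagTTTCGCGCcaaattgttcc
MCM6, chr2:136634081-136634110, plus strand: ggagctggagaTTTCGCGCcaaacctgacc
PCNA, chr20:5100004-5100033, plus strand: cgctttgtgacTTTGGCGCgaaaaagcagg
RFC3, chr13:34392220-34392249, minus strand: cagagacaagtTTTCCCGCgagctccaaat
TIPIN, chr15:66649067-66649096, plus strand: ggcccgcagcgTTTGGCGCcaaatccgtgc
CLSPN, chr1:36235566-36235595, plus strand: gctgttcttgcTTTCCCGCccagccagagt
In MCM2, MCM5, MCM6, PCNA and TIPIN the opposite strand also reads one of these words, which overlaps the printed word in part, so the overlapping matches are not separate stretches of sequence. MCM2 was the only gene of the 39 with both an E-box and an E2F-type word in the window, and there the printed stretches overlap. The centre of the word lay 12 bp from the summit in MCM2 and MCM6, 8 bp in MCM5 and RFC3, 31 bp in MCM3, 59 bp in CLSPN, 72 bp in PCNA and 91 bp in TIPIN.

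The E2F-type words belonged to the promoters whether or not MAX was listed there. In the 200 bp centred on the canonical TSS they were present in 19 of the 48 replication genes (39.6%), against 2.27% of all protein-coding genes (456 of 20098). The count was 15 of the 39 genes with a MAX peak (38.5%) and 4 of the 9 without (CDT1, GINS2, POLA2 and POLE). Genes with the word at the MAX summit had a median fold enrichment of 12.5 (range 8.09 to 20), and the 27 without it a median of 11.1. The word CCAAT, which the trimeric factor NF-Y binds, lay in 15 of the 39 summit windows (38.5%, against 24.0% of all) and in 23 of the 48 TSS windows (47.9%, against 25.1% of all). CACGTG lay in 7 of the 48 TSS windows (14.6%, against 5.67% of all). TIMELESS had CCAAT and CACGTG in its summit window and no E2F-type word. A match to a word describes the sequence and does not show that a factor bound it.

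**Figure D2:**
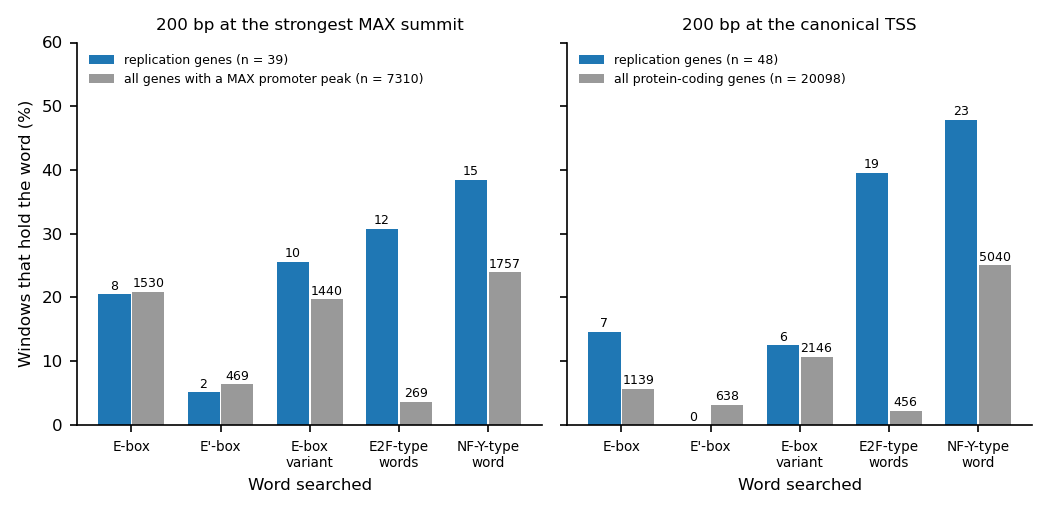
Bars give the percent of 200 bp windows that hold each word, at the strongest MAX summit (left, 39 replication genes and 7310 genes) and at the canonical TSS (right, 48 and 20098 genes), with counts above the bars; E-box is CACGTG, E′-box CACGTT, E-box variant CACGCG, and the NF-Y-type word CCAAT. The E-box bars are nearly level on the left (20.5% and 20.9%), and the E2F-type bars differ most (30.8% against 3.68%, and 39.6% against 2.27%).

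The MAX peaks of replication genes were about as strong as those of other genes. In the 39 replication genes, fold enrichment at the strongest promoter peak was 11.7 at the median, with quartiles of 8.28 and 14.3, and in all 7310 genes with such a peak it was 10.8 (8.57 and 13.9). The median pileup was 19 fragments in both, and the median -log10 p was 13.4 against 13.9, so the order of the medians depended on the measure. The 95% counting interval of the fold enrichment lay wholly above the median of all genes in 9 replication genes (23.1%, against 14.3% of all). These were TOP1, MCM7, MCM4, RPA3, PCNA, POLD1, POLE3, RFC1 and RPA2. It lay wholly below in 5 (12.8%, against 7.47% of all), TIMELESS, CDC6, GINS3, POLD3 and RFC4. For the other 25 genes counting error did not separate the peak from that median.

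**Figure D3:**
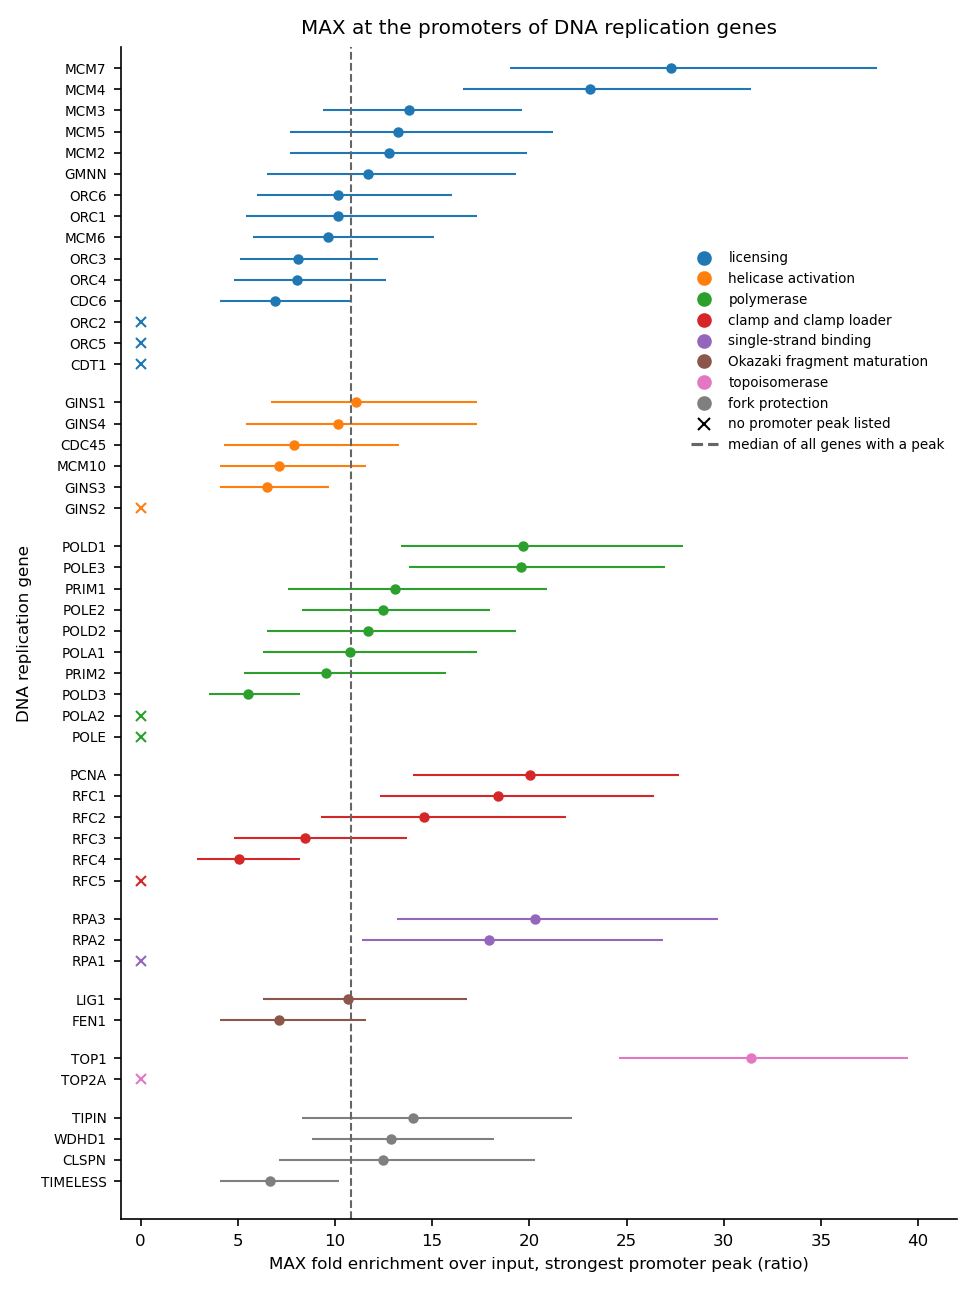
Points give the fold enrichment of the strongest MAX promoter peak of each replication gene with its 95% Poisson counting interval, coloured by role; crosses at 0 mark the 9 genes with no listed promoter peak, and the dashed line is the median of all genes with one (10.8). TOP1 (31.40) and MCM7 (27.28) are highest and RFC4 (5.08) lowest, and TIMELESS (6.66) is the lowest fork protection gene.

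All 6 subunits of the MCM2-7 helicase, the ring that opens the duplex, had a MAX promoter peak, and their median fold enrichment was 13.5. MCM7 was the highest of the licensing genes, with a peak at chr7:99697744-99699357, a pileup of 35 (24.4 to 48.7), a fold enrichment of 27.28 (19.0 to 37.9) and a -log10 p of 38.22. Its summit was 16 bp from an annotated TSS and 633 bp downstream of the canonical one, whose promoter is shared with AP4M1 at 246 bp. MCM4 had a peak at chr8:48872348-48873817 with the summit 51 bp upstream, a pileup of 41 (29.4 to 55.6), a fold enrichment of 23.13 (16.6 to 31.4) and a -log10 p of 41.46, and a second peak with a fold enrichment of 9.46. MCM4 shares its promoter with PRKDC, whose canonical TSS is 805 bp away. The fold enrichment was 13.81 at MCM3, 13.25 at MCM5, 12.76 at MCM2 and 9.65 at MCM6. MCM7 and MCM4 thus stood above the other 4, and the interval of MCM7 did not reach the values of MCM3, MCM5, MCM2 and MCM6, although it overlapped some of their intervals.

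The origin recognition complex, which marks origins for loading, had MAX at 4 of its 6 genes. Peaks were listed at ORC6 (fold enrichment 10.15), ORC1 (10.13), ORC3 (8.09) and ORC4 (8.04, and 5.24 at a second peak), and not at ORC2 or ORC5. The 4 values all lay below the median of 10.8. These 4 genes all share their promoter with a gene on the other strand. The canonical TSS of VPS35 is 481 bp from that of ORC6, PRPF38A 179 bp from ORC1, RARS2 148 bp from ORC3 and MBD5 354 bp from ORC4. ORC2 and ORC5 had no such neighbour. Elsewhere in the set POLE (PXMP2 at 245 bp) and RPA1 (SMYD4 at 103 bp) had such a neighbour and no listed MAX promoter peak. Over the 48 genes MAX was listed at 11 of 13 with such a neighbour and at 28 of 35 without. Of the loading factors, GMNN had a fold enrichment of 11.69 and CDC6 of 6.89, and CDT1 had no promoter peak. The nearest MAX peak to CDT1 was 5707 bp from a TSS, with a fold enrichment of 17.26.

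The genes that activate the helicase had a median fold enrichment of 7.90, the lowest of the roles. The values were 11.09 at GINS1, 10.13 at GINS4, 7.90 at CDC45 and 7.13 at MCM10. GINS1 had a second peak (10.15) at an upstream TSS, 205 bp from a TSS of ABHD12. GINS3 was the lowest, with a peak at chr16:58426054-58426499, the summit 73 bp upstream, a pileup of 23 (14.6 to 34.5), a fold enrichment of 6.49 (4.1 to 9.7) and a -log10 p of 12.07. GINS2 had no listed promoter peak, so 3 of the 4 GINS subunits were occupied.

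POLD1, the catalytic subunit of polymerase delta, was the only replication gene with both factors at its promoter. The MAX peak lay at chr19:50887156-50888173 with the summit 27 bp downstream of a TSS and 116 bp upstream of the canonical one, a pileup of 31 (21.1 to 44.0), a fold enrichment of 19.67 (13.4 to 27.9) and a -log10 p of 29.76. The BMAL1 peak lay at chr19:50887786-50888153, with its summit in an intron 374 bp downstream of the canonical TSS, a pileup of 23 (14.6 to 34.5), a fold enrichment of 12.18 (7.7 to 18.3) and a -log10 p of 17.96. It stood above 64.8% of the BMAL1 list and lay within the MAX peak over its whole 368 bp, but the summits were 490 bp apart. The BMAL1 summit window held a CACGTG whose centre was 49 bp from the summit, printed here on the plus strand because it is the only such word at a BMAL1 summit of these genes.
POLD1, chr19:50887914-50887943: gactgggtggtgCACGTGcgggcttggtgt
The MAX summit window of POLD1 held none of the words searched. Since the BMAL1 summit was 348 bp from its nearest TSS, POLD1 is not counted when summits must lie within 300 bp, and the BMAL1 count is then 0 of 48 against 1.36% of all genes.

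The other polymerase genes with a MAX peak ranged from 5.54 at POLD3 to 19.57 at POLE3. All 3 polymerase delta genes were occupied, with POLD2 at 11.69 and POLD3 among the 3 lowest values of all. The POLD3 peak (chr11:74204158-74204746, pileup 24 with an interval of 15.4 to 35.7, fold enrichment 5.54 with an interval of 3.5 to 8.2, -log10 p 11.07) was counted through a far upstream TSS. Its summit was 567 bp from that TSS, 99298 bp from the canonical one and 31 bp from a TSS of LIPT2. Of polymerase epsilon, POLE3, a small histone-fold subunit, had a peak at chr9:116172401-116173232 with the summit 27 bp inside the gene, a pileup of 37 (26.1 to 51.0), a fold enrichment of 19.57 (13.8 to 27.0) and a -log10 p of 35.00. The canonical TSS of C9orf43 is 72 bp away on the other strand. POLE2 had a value of 12.47, and the catalytic POLE had no listed promoter peak. Of polymerase alpha and its primase, PRIM1 (13.08), POLA1 (10.79) and PRIM2 (9.52) were occupied and POLA2 was not. The PRIM1 summit was nearer to a TSS of HSD17B6 (28 bp) than to one of PRIM1 (136 bp), and both PRIM2 summits were 889 bp from a PRIM2 TSS.

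The sliding clamp and its loader had a median fold enrichment of 14.6. PCNA had a peak at chr20:5099818-5100883 with the summit 513 bp downstream of the TSS, a pileup of 36 (25.2 to 49.8), a fold enrichment of 20.04 (14.0 to 27.7) and a -log10 p of 34.49. The large loader subunit RFC1 had a peak at chr4:39367749-39368283 with the summit 48 bp upstream, a pileup of 29 (19.4 to 41.6), a fold enrichment of 18.40 (12.3 to 26.4) and a -log10 p of 27.16. The small subunits that complete the loader ranged widely. RFC2 (chr7:73668488-73668963, summit 1 bp from a TSS, pileup 23 with an interval of 14.6 to 34.5, -log10 p 19.71) had a fold enrichment of 14.60 (9.3 to 21.9), RFC3 of 8.46, and RFC5 had no promoter peak. RFC4 had the lowest value of all 39 genes, with a peak at chr3:186524534-186524931, the summit 171 bp upstream, a pileup of 16 (9.1 to 26.0), a fold enrichment of 5.08 (2.9 to 8.2) and a -log10 p of 7.36. The intervals of RFC4 and RFC2 did not overlap, nor did those of RFC4 and RFC1.

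Among the genes for the single-strand binding protein RPA, which coats the unwound strands, the smaller subunits were occupied and the largest was not. RPA3 had a peak at chr7:7679953-7680476 with the summit 14 bp from a TSS, a pileup of 26 (17.0 to 38.1), a fold enrichment of 20.27 (13.2 to 29.7) and a -log10 p of 25.65. This summit was 148 bp from a TSS of UMAD1 and 78044 bp downstream of the RPA3 TSS marked canonical. With canonical TSSs alone RPA3 and POLD3 are not counted. RPA2 had a peak at chr1:28240799-28241647 with the summit 49 bp from a TSS, a pileup of 23 (14.6 to 34.5), a fold enrichment of 17.93 (11.4 to 26.9) and a -log10 p of 21.73. RPA1 had no listed promoter peak. The genes that finish lagging-strand fragments, LIG1 (10.65, and 7.11 at a second peak) and FEN1 (7.13), were both occupied.

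TOP1, the topoisomerase that relieves supercoils ahead of the fork, had the strongest MAX peak of all the replication genes. It lay at chr20:39656805-39657574 with the summit 326 bp upstream of the TSS, a pileup of 72 (56.3 to 90.7), a fold enrichment of 31.40 (24.6 to 39.5) and a -log10 p of 80.33, above 99.6% of the MAX list. Its pileup interval did not overlap that of MCM4, the next highest at 41 (29.4 to 55.6). Its fold enrichment interval did overlap those of several other genes, MCM7 (19.0 to 37.9) and MCM4 (16.6 to 31.4) among them. TOP2A, which untangles the copied duplexes, had no listed promoter peak, and its nearest MAX peak was 44405 bp away.

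The position of the peaks was close to the start sites. The strongest MAX summit lay a median of 51 bp from the nearest TSS of the gene in the 39 replication genes, against 118 bp in all genes with a peak, and within 100 bp in 28 of 39 (71.8%) against 46% of all. More annotated TSSs bring the nearest one closer, and their part in this difference was not tested. Relative to the canonical transcript, 25 summits were upstream, 9 in the 5′ UTR, 4 in an intron and 1, at GINS1, in coding sequence. In total the replication genes had 45 MAX promoter peaks, with 1 peak in 33 genes and 2 in 6.

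**Figure D4:**
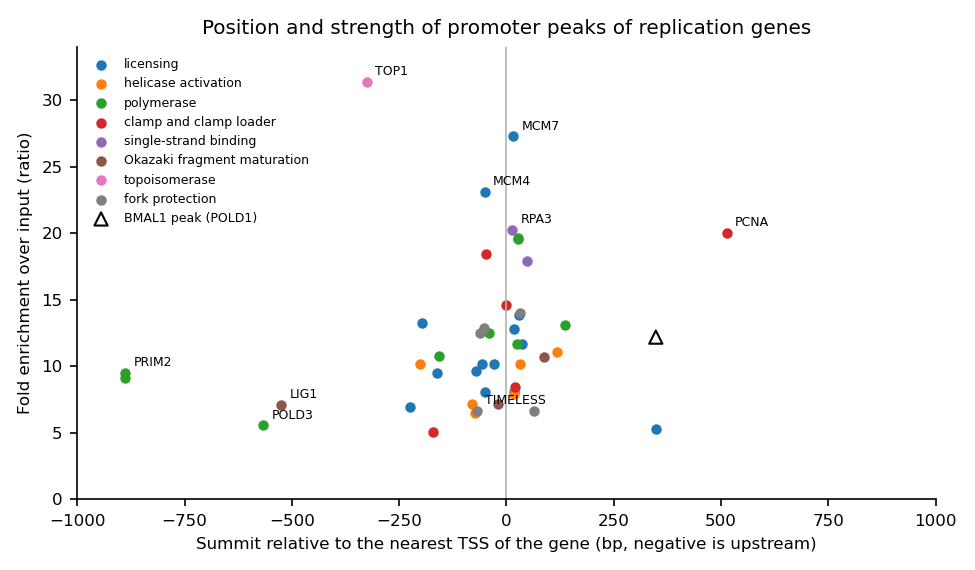
Each point is a MAX promoter peak of a replication gene, placed by the distance of its summit from the nearest TSS of the gene (bp) and its fold enrichment, and coloured by role; the open triangle is the BMAL1 peak of POLD1. Most points lie within 100 bp of the TSS, and PCNA (513 bp), POLD3 (567 bp), LIG1's second peak (525 bp) and the PRIM2 pair (889 bp) lie farthest from it.

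Fold enrichment divides the pileup by the local background, so both parts are given here. The 4 genes with the lowest fold enrichment, RFC4, POLD3, GINS3 and TIMELESS, were also the 4 with the highest local background, between 3.15 and 4.33 fragments, and their pileups of 16, 24, 23 and 21 lay around the median of 19. The lowest background of the list was 1.28 fragments. This equals the even coverage of the MAX tags, at 300 bp each, over the genome size given to the peak caller. It is thus a floor and not a local measure of the input. This floor was found at 10 of the 39 genes, against 17.8% of all genes. The fold enrichment of these 10 genes follows the pileup alone and ran from 10.13 at ORC1 and GINS4 to 27.28 at MCM7. TOP1, the highest by fold enrichment, had a background of 2.29. The median background was 1.77 in the replication genes and 1.75 in all genes.

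**Figure D5:**
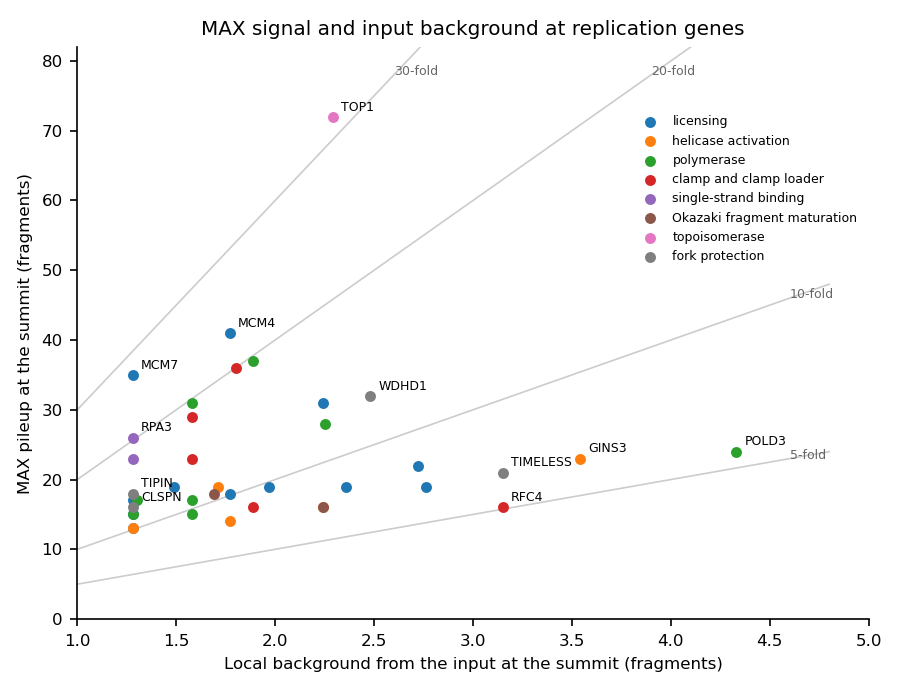
Each point is the strongest MAX promoter peak of a replication gene, placed by the local background from the input and by the pileup at the summit, both in fragments, with grey lines of equal fold enrichment. The lowest background, 1.28 fragments, is a genome-wide floor. RFC4, TIMELESS, GINS3 and POLD3 lie to the right at backgrounds of 3.15 to 4.33 with middling pileups, and TOP1 (72 fragments) stands above all others.

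The 9 genes without a listed MAX promoter peak were CDT1, ORC2, ORC5, GINS2, POLA2, POLE, RFC5, RPA1 and TOP2A. All 9 had CpG-rich promoters, and their median promoter GC content was 61.3%, against 59.1% in the genes with a peak. Their nearest MAX peaks lay between 5707 and 675929 bp away, with a median of 44405 bp, and only CDT1 had a MAX peak within 10 kb. ORC, GINS, polymerase alpha with its primase, polymerase epsilon, RFC and RPA each had at least 1 gene among them. A MAX summit lay between 1 and 10 kb from a TSS in 8 of the 48 replication genes (16.7%, against 19.1% of all genes), and a BMAL1 summit in 0 (against 1.51% of all). Neither count was far from the background.

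BMAL1 peaks in the wider surroundings of the replication genes were set beside those of all genes. The median distance from a TSS to the nearest BMAL1 peak was 472904 bp, against 909631 bp over all protein-coding genes. A BMAL1 summit lay within 100 kb in 9 of the 48 genes (18.8%, against 13.6% of all) and within 10 kb in POLD1 alone (2.08%, against 3.31% of all). Over all protein-coding genes, 95.4% of the genes with a BMAL1 promoter peak also had a MAX one, and 4.86% of the genes with a MAX promoter peak had a BMAL1 one. Among replication genes with a MAX peak that share was 2.56%, or 1 of 39.

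Other genes that act in replication, but outside this set, were taken from a list of 40 that includes the kinase CDC7, chromatin assembly factors and checkpoint genes. A MAX promoter peak was listed for 27 of the 40 (67.5%, against 36.4% of all protein-coding genes). The median fold enrichment was 12.9, against 10.8 in all genes with such a peak. The highest values were at MCM8, a relative of the MCM helicase (25.75, chr20:5930889-5931549, 2 bp from a TSS of TRMT6), at RIF1, which controls replication timing (23.08, chr2:152265784-152266835), and at RAD9A of the checkpoint clamp (20.31, chr11:67159012-67159853). RAD9A was also the 1 gene of the 40 with a BMAL1 promoter peak (chr11:67159056-67159640, fold enrichment 14.19, -log10 p 24.72), against 1.85% of all genes. The MAX and BMAL1 summits of RAD9A were 69 bp apart, against 490 bp at POLD1. CACGTG lay at the MAX summit in 8 of these 27 genes (29.6%, against 20.9% of all genes with a MAX promoter peak). E2F-type words lay in the TSS window of 9 of the 40 (22.5%, against 2.27% of all genes). At the MAX summit they lay in 1 of the 27, MTBP (3.7%, against 3.68% of all), which is the background share.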

How the data were processed

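Single reads from the BMAL1, MAX and input libraries were aligned by the authors to hg19 with BWA 0.6.2, and peaks were called with MACS2 2.0.9 for each antibody against the same input. Per the file headers, tags were extended to 300 bp, the p-value cutoff was 1.00e-05, and at most 2 (BMAL1) or 1 (MAX) duplicate tags were kept per position, so the 2 lists were not compared in strength. The study's methods name a stricter cutoff, and all deposited peaks were used. The deposited pileup is a signal in fragments at the summit. The deposited fold enrichment is a ratio, the pileup over a local background from the input that does not fall below a genome-wide floor. The deposited -log10 p and -log10 q values are those of the peak caller.

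The members and lists of genes and words were chosen with earlier results of these data known. TSSs came from GENCODE release 44 mapped to GRCh37 (279 genes without a canonical tag took their longest transcript), and sequence from the GRCh37 genome. All members are named; full records are given for those with a BMAL1 promoter peak, the 4 fork protection genes, and the 10 highest and 3 lowest MAX fold enrichments. Genes that share a promoter or have a TSS near a peak are named for some members only. Of the other replication genes, those with a BMAL1 peak and the 3 highest are named. Counts are set beside all protein-coding genes with no test. Intervals are exact Poisson intervals of the pileup at 95%, cover counting error only, and take the background as known. Peak assignment and word search were tested on simulated data, and the intervals were not. Sequence was read with pysam 0.24.0, tables were handled with pandas 2.3.3 and numpy 2.4.6, intervals came from scipy 1.17.1, and figures from matplotlib 3.10.9, under Python 3.11.15.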

Additional observations from a re-analysis of the deposited data

How the results depend on the processing

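The MAX count of 39 was recomputed under 10 alternatives, with other reaches, TSS sets, thresholds and gene sets, and stayed between 28 and 39. The lowest counts were 28 of 48 at a -log10 p of at least 12 (58.3%, against 23.5% of all genes), where TIMELESS and 10 others are not counted, and 28 of 35 without shared promoters (80%, against 32.9%). Shared promoters were judged by canonical TSSs alone, so some of the 28 still have another gene's TSS near the summit. With summits within 300 bp it was 35 (72.9%, against 29.1%), without PCNA, POLD3, PRIM2 and TOP1. The count of 24 for the 3 classes was 16 to 24, lowest at 16 of 20 without shared promoters (80%, against 32.9%), and the median strength was 10.7 to 11.7 where fold enrichment was kept as its measure. The BMAL1 count of 1 fell to 0 with summits within 300 bp and was 1 under the other 9 alternatives. Counting CACGTG or CACGCG gave 15 genes (38.5%, against 37.5%), and the other 4 alternatives gave 6 to 9. These were 6 in 100 bp windows (15.4%, against 13.4%) and 8 in 400 bp windows (20.5%, against 26.6%). Counting CACGTG or CACGTT gave 9 (23.1%, against 26.1%), and summits within 300 bp gave 7 of 35 (20%, against 18.3%). The side of the background on which the share fell thus changed with the setting. The alternatives of the E2F-type count of 12 were chosen after seeing the data. The count was 6 in 100 bp windows (15.4%, against 1.9%) and 6 with TTTGGCGC only (15.4%, against 0.876%). It was 17 in 400 bp windows (43.6%, against 6.85%) and 11 of 35 with summits within 300 bp (31.4%, against 3.91%). The causes were not tested. With 1 library per antibody, no replicate could be left out, and depth limits the lists: a peak at the median of the MAX list rests on 18 fragments. No paired analysis was possible because the groups compared share fewer than 2 replicate numbers.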
